A study of Mus musculus with 8 samples.

Results

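The genes described here carry the prolactin signal through STAT5 in the mammary gland: the receptors Prlr and Ghr, the kinase Jak2, the transcription factors Stat5a and Stat5b, and the targets Cish, Socs1, Socs2, Tnfsf11 and Ccnd1. These 10 genes were chosen by symbol, through the accession that each array probe carries, out of 18749 genes with a probe. Of the 10 genes, 9 had a probe. Ccnd1 is not analysed here, because no probe accession matched it. The signal of 8 genes was bright enough to be tested, and Tnfsf11 was not.

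Prolactin, released by the pituitary at the end of pregnancy and during suckling, binds the prolactin receptor on alveolar epithelial cells of the mammary gland. The receptor has no kinase of its own and uses the bound kinase JAK2, which phosphorylates STAT5A and STAT5B. The STAT5 dimers enter the nucleus and bind a palindromic element at genes for milk proteins, for cell survival and for the CISH and SOCS proteins, which in turn shut the receptor off. STAT5A is the better known of the pair in the mammary gland, where alveolar differentiation and lactation depend on it.

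RNA came from No. 4 mammary glands of dams at lactation day 1, all females of the C57/Bl6 strain background, 4 of them wild type (WT) and 4 lacking Th-POK (KO). Th-POK, encoded by Zbtb7b, is a transcription factor best known for directing T cell precursors to the helper lineage. The dams were age-matched but their age is not given in the sources used here, and neither a promoter nor a cell type that limits the deletion is named. Each dam was measured on 1 single-colour Agilent array, and every value below is a log2 signal of a probe after quantile normalization between the 8 arrays.

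The label of each array was checked on Zbtb7b, whose log2 signal was between 9.90 and 10.42 on the WT arrays and was not well above background on any KO array, at least 81.5-fold lower. Alveolar cell markers (Csn2, Csn1s1, Wap, Lalba and Glycam1) exceeded background clearly in every gland. Across 14137 genes, limma with Benjamini-Hochberg adjustment called 16.5% at an adjusted p under 0.05, and counts are read against this share. The 4 WT arrays shared a slide and the 4 KO arrays shared a different one, so genotype and slide cannot be told apart. The glands were measured whole, so fewer cells of a type and less RNA per cell cannot be told apart either.

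None of the 8 tested genes passed the threshold: 0 of 8 had an adjusted p under 0.05 from limma with Benjamini-Hochberg adjustment, against 16.5% of all genes tested. At an unadjusted p under 0.05 there was 1 gene, Stat5a, against 36.3% of all genes. Stat5a was also the 1 gene in which the WT and KO arrays did not overlap, a separation seen in 24.1% of all genes tested. The KO mean lay above the WT mean in 3 genes (Jak2, Cish and Socs2) and below it in 5 (Prlr, Ghr, Stat5a, Stat5b and Socs1).

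**Figure D1:**
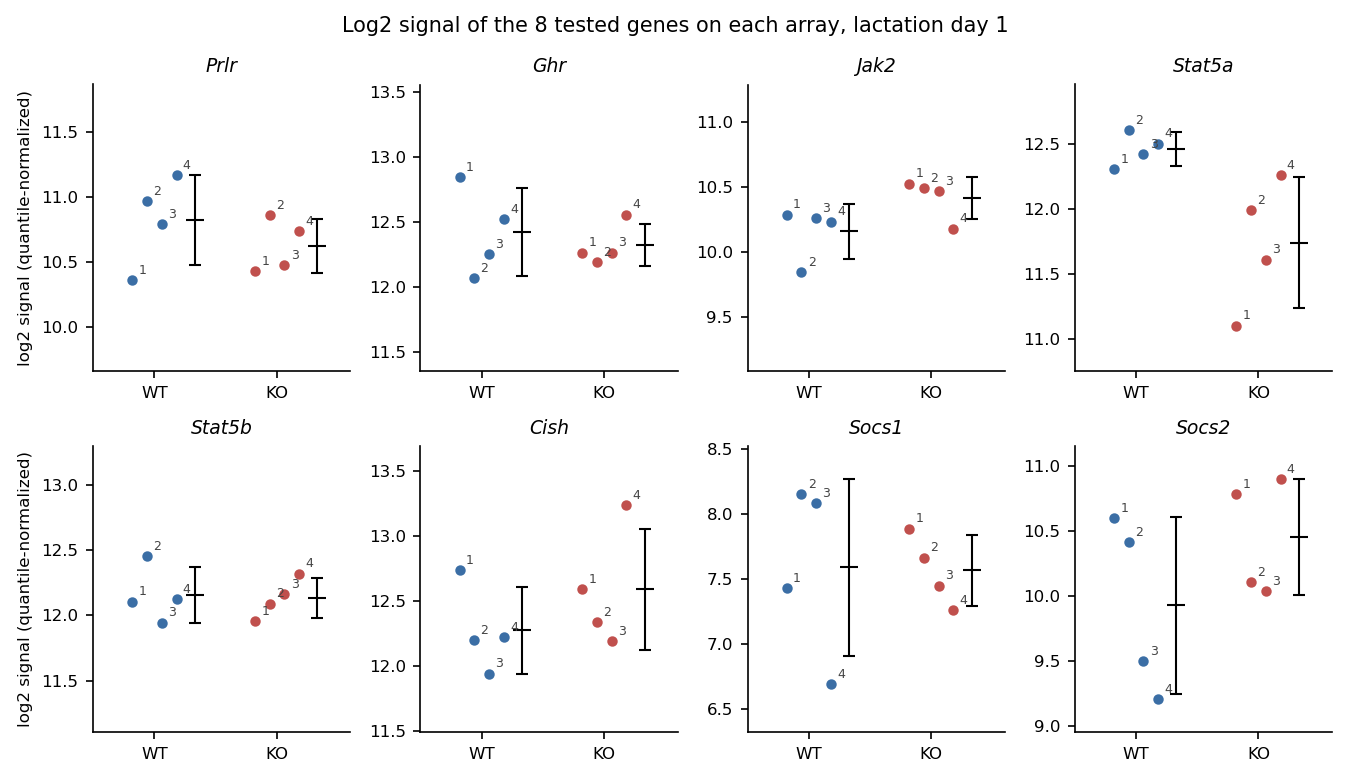
Log2 signal (vertical axis, quantile-normalized; the range shown spans the same number of log2 units in every panel) of the brightest probe of 8 genes on the 4 WT (blue) and 4 KO (red) arrays. Points are arrays, numbered by replicate, and bars give the mean and SD. The genotypes separate in Stat5a, where the KO arrays lie between 11.11 and 12.26 and the WT arrays between 12.31 and 12.61, and overlap in the other 7 genes.

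The receptors came first in the order of the pathway. Prlr, the prolactin receptor, had log2 signals of 10.36, 10.97, 10.79 and 11.16 in WT replicates 1 to 4 and of 10.43, 10.86, 10.47 and 10.73 in KO replicates 1 to 4 (probe A_52_P602987). The genotypes overlapped, and the WT gland with the lowest signal lay below every KO gland. The KO mean differed from the WT mean by -0.20 (SE 0.19, 95% confidence interval -0.62 to 0.23, adjusted p = 0.473 from limma). Both other Prlr probes were also lower in the KO glands on average, by -0.39 (SE 0.20) and -0.41 (SE 0.19), with adjusted p-values of 0.197 and 0.161 over all probes, and neither passed the threshold. All 3 probes match the same accession, so they do not count as separate evidence. Without WT replicate 1, the dimmer probe A_52_P458279 passed the threshold (difference -0.57, adjusted p = 0.0463).

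Ghr, the growth hormone receptor, which signals through the same kinase and STATs, was measured by 3 probes. Its brightest probe (A_52_P680935) lay between 12.07 and 12.85 in WT and between 12.19 and 12.56 in KO glands. The KO glands thus fell inside the range of the WT glands. The difference was -0.10 (SE 0.18, 95% confidence interval -0.50 to 0.30, adjusted p = 0.709 from limma), and the other probes differed by -0.02 and -0.10.

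Prl, the gene of the hormone itself, is transcribed in the pituitary. It was well above background on 1 WT array and on 0 KO arrays and was not tested.

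Jak2, the kinase bound to both receptors, was the gene whose probes disagreed in their call. The bright probe (A_51_P483231) read 10.29, 9.85, 10.26 and 10.23 in WT and 10.52, 10.49, 10.47 and 10.18 in KO glands. On that probe 3 KO glands lay above all WT glands and KO replicate 4 lay among them, with a difference of 0.26 (SE 0.14, 95% confidence interval -0.05 to 0.57, adjusted p = 0.203 from limma).

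The dim Jak2 probe (A_52_P309376) read 6.30, 5.85, 5.97 and 6.17 in WT and 6.79, 6.58, 6.69 and 6.42 in KO glands. All KO glands lay above all WT glands on this probe. The difference of 0.55 (SE 0.13) passed the threshold in the fit over 20838 probes (adjusted p = 0.0323 from limma), which made it 1 of 14 tested probes of these genes, against 14.8% of all probes in that fit. The call was lost with normexp background correction, where the difference was 0.24 (adjusted p = 0.0912), and with array position on the slide as a block (adjusted p = 0.101). It was also lost when any of WT replicates 2 and 3 or KO replicates 1, 2 and 3 was left out, with adjusted p-values of 0.0828, 0.0784, 0.0820, 0.0701 and 0.0898 in that order. The mean of both probes differed by 0.40 (adjusted p = 0.0641). Between arrays of the same position, deviations from the genotype means correlated at a mean r of -0.24, which widens the error under that block. Calls lost with the position block, here and below, do not by themselves show a dependence on position.

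Adipocyte markers on the same arrays are given beside Jak2. Fabp4, a fatty acid carrier of adipocytes, was among the 3 genes closest to the bright Jak2 probe in pattern. Ift46 and Eola1, which are not on the adipocyte list, were closer than Fabp4. Of 9 adipocyte markers tested, 2 rose in the KO glands (Plin1 and Cfd), and the summed signal of the list ran from 347824 to 483294 units in WT and from 489782 to 670715 units in KO glands. The mean log2 signal over the list was 13.53, 13.07, 13.49 and 13.75 in WT and 13.72, 13.91, 13.88 and 13.81 in KO replicates 1 to 4. WT replicate 2 was the lowest WT gland in both, whereas in the KO glands the orders differed: KO replicate 1 was highest for Jak2 and lowest for the adipocyte list, and KO replicate 4, lowest for Jak2, was not. No marker of the list was below background on any array. Their part in the Jak2 result was not tested.

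Stat5a had the lowest p of the 8 genes. Its log2 signals were 12.31, 12.61, 12.43 and 12.50 in WT replicates 1 to 4 (probe A_51_P152765). In the KO glands they were 11.11, 11.99, 11.61 and 12.26. Every KO gland lay below every WT gland, with KO replicate 4 just below the lowest WT gland and KO replicate 1 farthest away. The WT values were tight (12.46 ± 0.13, SD, n = 4 arrays) and the KO values spread wider (11.74 ± 0.50, SD, n = 4 arrays).

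The difference in Stat5a was -0.72 (SE 0.23, 95% confidence interval -1.25 to -0.19), a WT signal 1.65-fold that of KO. It missed the threshold with an adjusted p of 0.0632 from limma with Benjamini-Hochberg adjustment. Blocking on the replicate number made the same difference pass (adjusted p = 0.0404), as it did without KO replicate 4, where it was -0.89 (adjusted p = 0.0317). KO glands were lower than the WT gland of the same number in 4 of 4 pairs, by -1.20, -0.62, -0.81 and -0.24. Any other pairing would also have given 4 of 4, because the genotypes did not overlap. Leaving out any other array kept it short of the threshold, with adjusted p-values up to 0.152.

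Stat5b, the close relative of Stat5a that mediates much of growth hormone signalling in liver, did not show that pattern on its bright probe (A_52_P53698). Its signals were 12.11, 12.46, 11.95 and 12.13 in WT and 11.96, 12.09, 12.16 and 12.32 in KO glands. The genotypes overlapped throughout. The difference was -0.03 (SE 0.14, 95% confidence interval -0.34 to 0.28, adjusted p = 0.905 from limma). The dim Stat5b probe (A_51_P281938) differed by -0.40 (SE 0.23, adjusted p = 0.240 over all probes), so the Stat5b probes disagree in size.

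Stat5a and Stat5b were also set against each other within arrays, as a description with no test, since the comparison was chosen after the values had been seen. Stat5a minus Stat5b was 0.20, 0.15, 0.48 and 0.38 in WT and -0.85, -0.10, -0.55 and -0.06 in KO glands. All WT differences were above 0 and all KO differences below it; since probes differ in brightness, the shift between genotypes carries the meaning and the sign does not. The shift was -0.69. With the dim Stat5b probe the shift was -0.32 and the genotypes overlapped, at 5.54 to 6.03 in WT and 4.92 to 5.68 in KO glands. Both the size of the shift and the separation thus depend on which Stat5b probe is taken. Without any 1 of the WT arrays the shift on the bright probe stayed between -0.74 and -0.63. Leaving out 1 KO array moved it more, from -0.80 (without KO replicate 4) to -0.54 (without KO replicate 1).

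**Figure D2:**
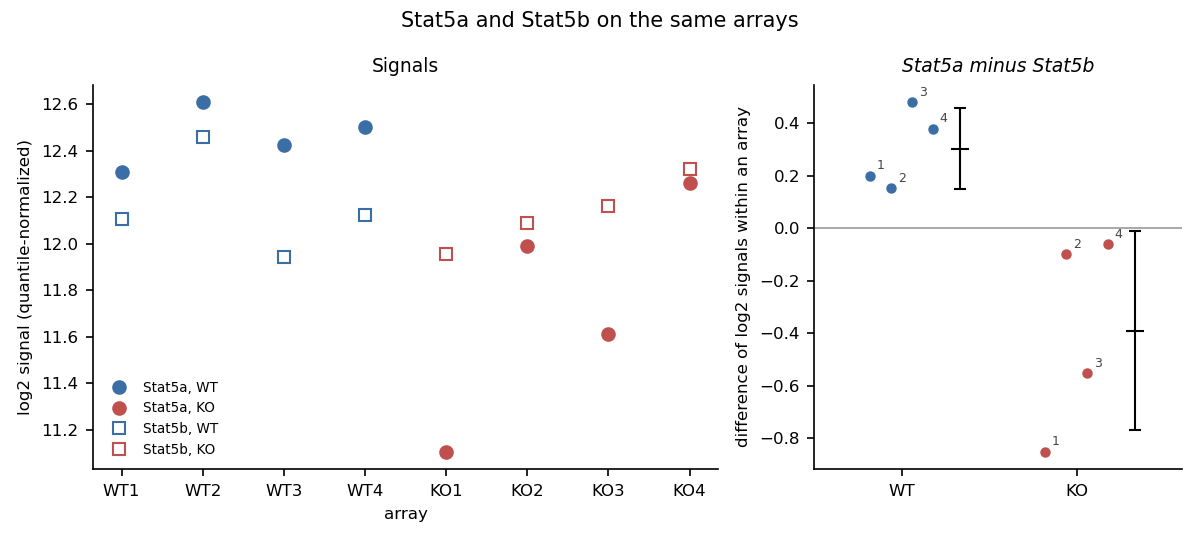
Left, log2 signal (vertical axis) of Stat5a (filled circles) and Stat5b (open squares, bright probe) on each array, WT in blue and KO in red. Right, Stat5a minus Stat5b (bright probe) within each array, with the mean and SD of each genotype. The difference lies between 0.15 and 0.48 in WT and between -0.85 and -0.06 in KO glands. With the dim Stat5b probe, not shown, the genotypes overlap.

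STAT5A acts in luminal and alveolar epithelial cells, so markers of these cells are given beside it. Of 7 luminal epithelium markers, 4 rose in the KO glands (Krt18, Epcam, Cdh1 and Ltf) and 0 fell. Elf5, also on that list, differed by -0.35 and did not pass the threshold. Their summed signal ran from 284444 to 363025 units in WT and from 470708 to 545664 units in KO glands, while the means of Stat5a and Elf5 were lower in KO glands. Of the 5 alveolar markers none passed the threshold, and their mean log2 signal ran from 17.41 to 17.61 in WT and from 17.40 to 17.63 in KO glands. Csn2, Csn1s1, Wap and Glycam1 are among the brightest probes, whose values quantile normalization sets by rank. The near-equal means therefore do not measure equal alveolar content. All 5 alveolar markers are also listed below as milk protein targets of STAT5. No luminal or alveolar marker was below background on any array. Their part in the Stat5a result was not tested.

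The genes with a pattern most like Stat5a over the 8 arrays were 4930471G03Rik, Homer1 and Ptprr, at root mean square distances of 0.107, 0.122 and 0.122 log2 units from the centred Stat5a signal, out of 14136 other genes. Stat5a itself varied by 0.479 on that scale.

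**Figure D3:**
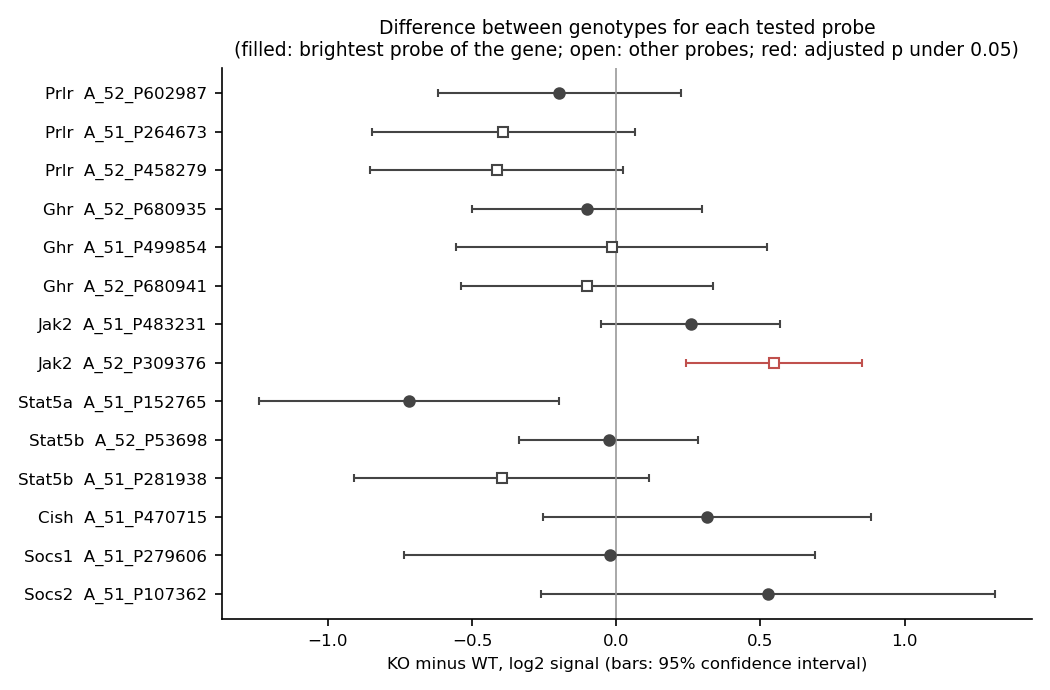
KO minus WT difference in log2 signal (horizontal axis) for the 14 tested probes of the 8 genes, with 95% confidence intervals from the fit over 20838 probes. Filled symbols are the brightest probe of a gene, open symbols its other probes, and red marks the dim Jak2 probe, the 1 probe with an adjusted p under 0.05. The interval of the Stat5a probe, -1.24 to -0.20, also lies to the left of 0.

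The targets follow. STAT5 binds the element TTCNNNGAA, a palindrome that reads the same on both strands. It was searched in promoter windows from 250 bases before to 50 bases after each start of a RefSeq gene (build GRCm38.p6), where 8.30% of 32851 windows hold it. Windows were at hand for 8 of the 10 genes, and the element was found in the windows of Cish and in 1 of 3 windows of Prlr. The Cish window held it 2 times, and 0.457% of all windows hold it that often or more. No match was found for Ghr, Jak2, Stat5a, Stat5b, Socs1 or Tnfsf11. Among the windows of the other pathway genes listed below, 11 of 109 (10.1%) held the element, near the share of all windows. Some of these matches, among them those of Glycam1 and Bcl6, are not printed. The matches in Cish and Prlr are printed here together with those of Socs3 and Csn2, whose signals are given further on, and of Csn1s1. Each is written 5′ to 3′ on the strand of the gene with the element in capitals, and a match is a description of the letters only.
Cish, chr9:107296651-107296675, plus strand: gcccagttTTCCTGGAAagttcttg
Cish, chr9:107296662-107296686, plus strand: ctggaaagTTCTTGGAAatctgtca
Prlr, chr15:10223788-10223812, plus strand: aaaatgagTTCTAGGAAtaagggat
Socs3, chr11:117969504-117969528, minus strand: aaccagccTTCTTAGAAgggagggg
Csn2, chr5:87699502-87699526, minus strand: acgtagacTTCTTGGAAttgaaggg
Csn1s1, chr5:87666100-87666124, plus strand: tgtaacaaTTCTTAGAAtttatgta

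Cish, an inhibitor of cytokine receptors that STAT5 induces directly, is the gene with both elements at its start. Its log2 signals were 12.74, 12.20, 11.94 and 12.22 in WT and 12.59, 12.34, 12.19 and 13.24 in KO glands. KO replicate 4 was the highest of all glands and the other 3 KO glands lay inside the WT range. The difference was 0.31 (SE 0.25, 95% confidence interval -0.26 to 0.89, adjusted p = 0.399 from limma). Without KO replicate 4 it was 0.10 (adjusted p = 0.749).

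Socs2, which restrains growth hormone and prolactin receptor signalling, spread over more than 1 log2 unit within the WT glands. It read 10.60, 10.41, 9.50 and 9.21 in WT and 10.78, 10.11, 10.04 and 10.90 in KO glands. KO replicates 1 and 4 were the highest of all glands, and the genotypes overlapped. The difference of 0.53 (SE 0.35, 95% confidence interval -0.27 to 1.32, adjusted p = 0.308 from limma) was smaller than the SD of the WT glands (0.68).

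Socs1, an inhibitor of JAK kinases induced by several cytokines, lay between 6.69 and 8.15 in WT and between 7.26 and 7.89 in KO glands. The means differed by -0.02 (SE 0.32, 95% confidence interval -0.75 to 0.70, adjusted p = 0.967 from limma). Markers of T cells, in which Socs1 is also expressed, are given beside it. In WT replicates 1 to 4 the mean log2 signal of 7 T cell markers was 6.14, 7.21, 7.27 and 6.15, where Socs1 was 7.43, 8.15, 8.08 and 6.69. In the KO glands the markers were at 6.48, 6.40, 6.18 and 6.32, where Socs1 was 7.89, 7.66, 7.45 and 7.26. WT replicates 2 and 3 were the highest WT glands in both, and KO replicate 1 the highest KO gland in both, but the lowest KO gland differed. Of these 7 markers, 2 fell in the KO glands (Cd3e and Cd4) and 0 rose. Their summed signal ran from 586 to 1559.9 units in WT and from 628 to 824 units in KO glands, with no marker below background on any array, and their part in the Socs1 values was not tested.

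Tnfsf11, which encodes RANKL, a paracrine signal from hormone-sensing to alveolar progenitor cells in pregnancy, was near background in nearly all glands. One probe (A_52_P488947) read 4.87, 1.49, 1.51 and 1.497 in WT and 1.46, 3.97, 1.51 and 1.49 in KO glands. The other probe (A_51_P465640) read 4.33, 1.51, 1.39 and 1.46 in WT and 1.45, 2.92, 1.43 and 1.45 in KO glands. On both probes the same pair of glands stood out, WT replicate 1 and KO replicate 2, whose arrays share position 2 on their slides. A probe was well above background on WT replicate 1 for both and on KO replicate 2 for the first only, so no level can be given for the other glands. Its receptor Tnfrsf11a (RANK) was measured in all glands and differed by 0.35 (SE 0.15, adjusted p = 0.132 from limma).

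The other genes of the pathway were taken from 6 lists of 104 genes in all, of which 92 were tested. With an adjusted p under 0.05 from limma, 6 rose in the KO glands, against 7.53% of all genes tested, and 1 fell, against 8.96%. Gab2, 1 of the 6, passed the filter only through its KO signal, and with a filter on all 8 arrays 5 rose and 2 fell. The median difference over the 92 genes was 0.08, beside -0.02 over all genes tested. Blocking on the replicate number gave 10 that rose and 7 that fell, scaling to the 75th percentile 6 and 5, and normexp correction 7 and 3. The total of 7 became 2 without KO replicate 3, 4 without WT replicate 2, 12 without KO replicate 4 and 16 without WT replicate 1. With array position as a block it was 1, Igf2. The lists were written from general knowledge with earlier results of these data known.

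**Figure D4:**
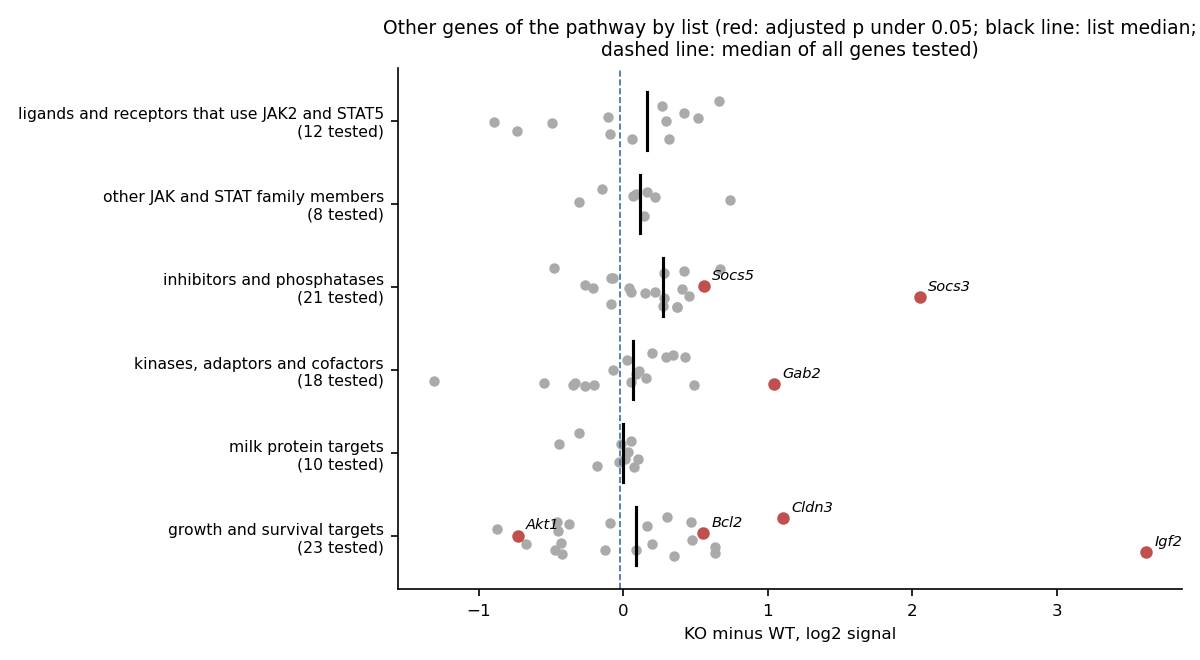
KO minus WT difference in log2 signal (horizontal axis) of 92 genes in 6 lists (rows). The list of ligands and receptors is named for JAK2 and STAT5, but JAK2 is not the usual kinase of all its genes. Each point is a gene, red points have an adjusted p under 0.05, black lines are list medians and the dashed line is the median of all genes tested, -0.02. Of the 7 red points, 6 lie to the right of 0, with Igf2 farthest out at 3.62, and Akt1 lies to the left at -0.73.

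Of 12 tested ligands and receptors upstream of STAT5, none passed the threshold in limma. JAK2 is not the usual kinase of all of them, Il2rb, Il2rg, Il7r and Egf being among the 12. None of 8 other JAK and STAT family members passed it either. Stat3, which drives the return of the gland to rest after weaning, differed by 0.73 (SE 0.25, adjusted p = 0.0755 from limma) and passed with the replicate block (adjusted p = 0.0268).

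Of 21 inhibitors and phosphatases tested, 2 rose and 0 fell, with a list median of 0.27. Socs3, an inhibitor of cytokine receptors that STAT3 also induces, rose by 2.05 (SE 0.43, adjusted p = 0.0214 from limma). Its signals were 10.82, 9.45, 10.51 and 9.61 in WT and 13.29, 11.73, 11.78 and 11.81 in KO glands. The genotypes were far apart, and KO replicate 1 stood above the other KO glands. The call was lost without WT replicate 2 (adjusted p = 0.0581) and without KO replicate 3 (adjusted p = 0.0528). It was also lost with array position as a block (adjusted p = 0.0834 from limma). The test of the study's methods, used in place of limma, lost it too.

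Neutrophil markers are given beside Socs3. Of 5 tested, S100a8, S100a9 and Mpo were measured in both genotypes, and none of these passed the threshold (differences 0.49, 2.19 and 0.24, adjusted p = 0.357, 0.0566 and 0.524 from limma). Ngp and Camp were not well above background on any WT array and entered the test only through their KO signals, which were at least 7.11-fold and 8.54-fold higher. The summed signal of the list ran from 1612 to 7579 units in WT and from 7723 to 18745 units in KO glands. Its mean log2 signal, over the 6 genes with a probe, was 5.64, 5.31, 5.74 and 6.37 in WT and 8.50, 7.49, 7.44 and 7.62 in KO replicates 1 to 4. The sum and the mean include Ngp and Camp, and also Cxcr2, which did not pass the filter. The WT values of Ngp and Camp are below what the arrays measure, so the gap in the mean between genotypes has no readable size. KO replicate 1 was the highest KO gland for Socs3 and for the list, whereas in WT glands Socs3 was highest in replicate 1 and the list in replicate 4. Their part in the Socs3 result was not tested.

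Socs5, a relative of Socs3, rose by 0.55 (SE 0.14, adjusted p = 0.0313 from limma). It lay between 7.32 and 7.67 in WT and between 7.83 and 8.29 in KO glands, with no overlap. Its call was lost without any of WT replicates 2, 3 and 4 and KO replicates 1, 2 and 3, with adjusted p-values of 0.0842, 0.0535, 0.0600, 0.0722, 0.0726 and 0.0872 in that order. Array position as a block (adjusted p = 0.114 from limma) and the test of the study's methods lost it as well. Ptpn1, a phosphatase that acts on JAK2, did not overlap between genotypes but missed the threshold (difference 0.45, SE 0.16, adjusted p = 0.0770).

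**Figure D5:**
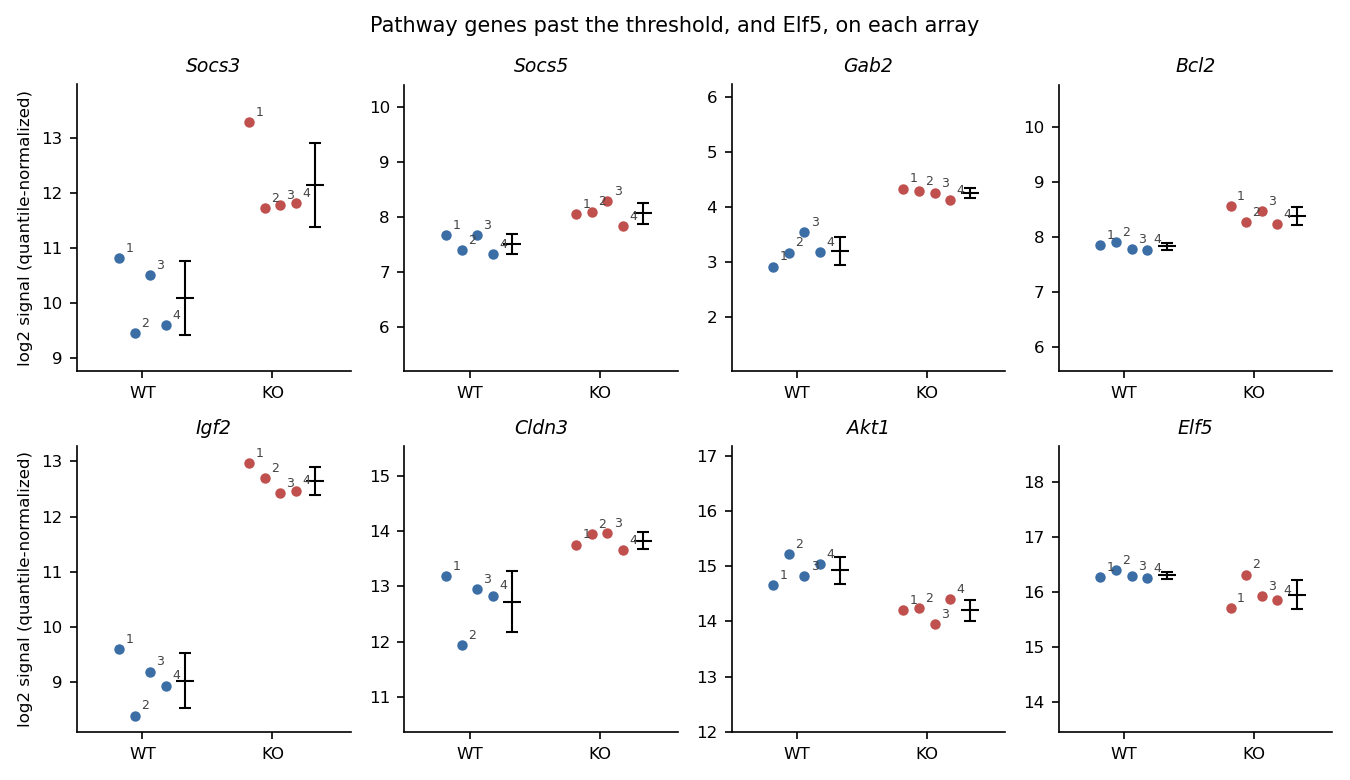
Log2 signal (vertical axis; every panel spans the same number of log2 units) of the 7 pathway genes past the threshold and of Elf5 on the WT (blue) and KO (red) arrays. Points are arrays, numbered by replicate, and bars give the mean and SD. The genotypes do not overlap in the 7 called genes, with the widest gap in Igf2, and overlap in Elf5, where KO replicate 2 lies among the WT glands.

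Of 18 kinases, adaptors and cofactors, 1 passed the threshold, Gab2, an adaptor between receptors and PI3 kinase. It was not well above background on any WT array and entered the test only through its KO signal, which was at least 1.56-fold higher. With normexp background correction the call was lost (difference 0.21, adjusted p = 0.0673 from limma). Array position as a block lost it as well (adjusted p = 0.0568 from limma). Elf5, a transcription factor that works with STAT5 in alveolar cells, read 16.26, 16.40, 16.29 and 16.25 in WT and 15.71, 16.32, 15.93 and 15.85 in KO glands. Only KO replicate 2 lay among the WT glands. The difference of -0.35 (SE 0.14) missed the threshold (adjusted p = 0.107 from limma) and passed without KO replicate 2 (-0.47, adjusted p = 0.0473) and with scaling to the 75th percentile in place of quantile normalization (-0.55, adjusted p = 0.0343).

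Milk protein genes are the classical targets of STAT5, and none of the 10 tested passed the threshold in limma, with a list median of -0.0028. Csn2, the gene of beta-casein, had log2 signals of 17.69, 17.77, 17.76 and 17.81 in WT and of 17.69, 17.72, 17.81 and 17.85 in KO glands. The difference was 0.01 (SE 0.09, 95% confidence interval -0.19 to 0.21, adjusted p = 0.939), and for Wap, whey acidic protein, it was 0.07 (SE 0.08, 95% confidence interval -0.12 to 0.26, adjusted p = 0.557). Csn2, Wap, Csn1s1, Csn1s2a, Glycam1 and Wfdc18 are among the brightest probes, whose values quantile normalization sets by rank. The list median near 0 therefore does not measure an absence of change. With scaling to the 75th percentile the sign turned in Csn2 and Wap (-0.14 and -0.11, adjusted p-values 0.465 and 0.579 from limma).

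Lalba, the gene of alpha-lactalbumin, a cofactor of lactose synthesis, read 14.97, 15.71, 15.39 and 15.74 in WT and 14.67, 15.23, 14.71 and 15.41 in KO glands. The genotypes overlapped, but each KO gland was lower than the WT gland of the same number. The difference was -0.45 (SE 0.23, 95% confidence interval -0.97 to 0.08, adjusted p = 0.197 from limma). Blocking on the replicate number made it pass the threshold (adjusted p = 0.0444).

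Of 23 growth and survival genes tested, 3 rose and 1 fell, with a list median of 0.09. Igf2, a growth factor that prolactin can induce in mammary epithelium, rose by 3.62 (SE 0.25, adjusted p = 0.000275 from limma), 12.3-fold. Its signals were 9.59, 8.39, 9.18 and 8.93 in WT and 12.97, 12.69, 12.43 and 12.47 in KO glands. All KO glands lay far above all WT glands, and the call held under each of the 18 alternatives tried.

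Cldn3, a tight junction protein, rose by 1.11 (SE 0.25, adjusted p = 0.0255 from limma), and the call was lost without KO replicate 1, 2 or 3 (adjusted p = 0.0597, 0.0629 and 0.0732). Array position as a block (adjusted p = 0.0734 from limma) and the test of the study's methods lost it as well. Bcl2, which opposes apoptosis, rose by 0.55 (SE 0.11, adjusted p = 0.0176), and the call was lost without KO replicate 3 (adjusted p = 0.0577) and with the mean of its probes (difference 0.33, adjusted p = 0.0552). The Bcl2 call was also lost with array position as a block (adjusted p = 0.0769). Akt1, a kinase of survival and lipid synthesis in the lactating gland, was the gene that fell, by 0.73 on the log2 scale (SE 0.15, adjusted p = 0.0206). Its call was lost without WT replicate 2, KO replicate 1 or KO replicate 3 (adjusted p = 0.0517, 0.0546 and 0.0612). The Akt1 call was also lost with array position as a block (adjusted p = 0.0827).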

How the data were processed

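Total RNA of 8 glands was labelled with Cy3 and hybridized to Agilent mouse 4x44K arrays. For each array the authors deposited scanner output of Agilent Feature Extraction 10.7, with intensities already background-subtracted and detrended by that software. A second file the authors deposited holds log2 values, quantile-normalized in GeneSpring, with column medians of 6.32, and served as an alternative only. Against the scanner values of its array each column had r of 0.9985 or more.

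The log2 of the processed intensity was quantile-normalized (limma 3.58.1, R 4.3.3). Outlier spots (64 to 100 per array) were left out and 0 were saturated. The share of probes well above background ran from 66.8% to 75.3%. Accessions were matched to symbols through a RefSeq table, for 27479 of 41174 probes. A probe entered if well above background on all 4 arrays of a genotype, and the brightest probe stood for a gene. Genes were compared with limma and Benjamini-Hochberg adjustment over 14137 genes, called at an adjusted p under 0.05; single probes were compared in a fit over 20838 probes. The code was tested on simulated data. A gene below background in a genotype has a lower limit as its fold, taken against the higher of its own signal and the dimmest signal well above background on each dim array. The scanner output held no mean signal, so normexp (offset 50) used the median signal. The number of arrays limits the precision.

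Members and lists were chosen with earlier results of these data known. Named by rule were all members, every listed pathway gene called, the defining genes Prl, Elf5, Csn2, Wap, Lalba, Socs3, Ptpn1 and Tnfrsf11a, the 3 nearest patterns of Stat5a (those of Prlr are not reported here), markers of cell types that move with a member, and member probes that disagree. Stat3, and Fabp4, Ift46 and Eola1 beside Jak2, were named after their values were seen.

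The labels number the replicates 1 to 4 in each genotype, and the study's methods describe the replicates as separate sets. Deviations from the genotype means correlated between same-numbered arrays at r = 0.22, 0.16, 0.30 and 0.28. The mean r was 0.24 for same-numbered arrays and -0.08 for arrays of different number. Some of the latter correlated as much: WT replicate 1 with KO replicate 3 (0.34) and WT replicate 3 with KO replicate 1 (0.26). WT replicate 2 with KO replicate 4 reached 0.24. The numbers were taken as pairing the samples, but the correlations do not single out this pairing. Nothing further says what a set shares.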

Additional observations from a re-analysis of the deposited data

Results flagged for a closer look

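Of 58 groups of 4 arrays looked at, 8 held a value far from the other 3, where chance gives about 1 in 20, and both probes of a gene are not independent. Jak2 (bright probe) read 9.85 in WT replicate 2 against 10.23 or more in the other WT glands, and 10.18 in KO replicate 4 against 10.47 or more in the other KO glands. Tnfsf11 stood out in WT replicate 1 (4.33 and 4.87 on its probes) and in KO replicate 2 (2.92 and 3.97), against 1.51 or less elsewhere. Socs3 read 13.29 in KO replicate 1 against 11.81 or less in the other KO glands. Wap read 18.44 in KO replicate 2 against 18.48 in the other KO glands. Those other KO values are identical, because quantile normalization sets the brightest values by rank, so the Wap flag rests on a step between ranks.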

How the results depend on the processing

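The difference of each of the 8 tested genes stayed on its side of the threshold under all 18 alternatives, except Stat5a, so 1 gene passed with the replicate block and without KO replicate 4 (0 to 1 over single arrays left out). Ghr (-0.22 to 0.04), Stat5b (-0.21 to 0.07) and Socs1 (-0.32 to 0.16) took either sign, uncalled each time, and no named gene that was called changed sign. Of the probes of these genes, 0 passed with normexp correction, 2 with the replicate block, 0 with array position as a block, and 0 to 2 over single arrays left out. Genes called numbered 1389 with the methods' t-test and 137 with position as a block, an alternative chosen after seeing the data. Deviations correlated at a mean r of -0.24 between arrays of the same position and of 0.08 between others. The position block therefore widens the error, and calls lost with it do not by themselves show a dependence on position. Over single arrays left out, genes called numbered 515 (without KO replicate 3) to 3070 (without WT replicate 1). Counts were also low without WT replicate 2 (767) or 3 (983) or KO replicate 1 (756) or 2 (946), against 2331 with all arrays. Pathway genes called numbered 11 with scaling to the 75th percentile, 17 with the replicate block, 1 (Igf2) with position as a block, and 2 (without KO replicate 3) to 16 (without WT replicate 1) over single arrays left out, with 4 without WT replicate 2 and 12 without KO replicate 4. Stat5a minus Stat5b shifted by -0.32 with the dim Stat5b probe and by -0.80 to -0.54 over single arrays left out; it is given without a test. The causes were not tested. Slide as a block was not run, because each slide holds 1 genotype. The replicate block changed the calls of Stat5a and Lalba among the members and defining genes and of no other gene of these.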
